A study of Homo sapiens with 40 samples.

Results

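The zinc finger cluster at the telomeric end of the long arm of human chromosome 19 (19q13.43) was examined in A549 cells, a widely used cell line from a human lung adenocarcinoma. The cluster was taken as 50 named zinc finger genes, from ZNF582 on the centromere side to ZNF446 near the telomere, of 62486 gene IDs in the deposited count table. It was set beside the chromatin of the surrounding segment, chr19:56800000-59128983 (GRCh37). The genotypes compared were labelled control and SETDB1 knockout (KO). In the KO cells SETDB1 was disrupted with CRISPR/Cas9 from the PX458 plasmid, and both genotypes are A549 cells grown in the same medium. The labels do not say whether the KO cells are a clone or a pool, nor what the control cells received. RNA-seq comprised 3 libraries per genotype, Hi-C 2 libraries per genotype, and ChIP-seq of 5 targets (H3K9me3, H3K27me3, H3K27ac, H3K4me3 and CTCF) 2 libraries per genotype and target, of 40 samples in all.

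Most genes of this cluster encode C2H2 zinc finger proteins with a KRAB domain. KRAB domains bind TRIM28 (KAP1), which brings in SETDB1, the methyltransferase that writes H3K9me3, and through it the heterochromatin proteins of the HP1 family. Many of these proteins bind transposable elements, and zinc finger gene clusters on chromosome 19 are themselves known to carry broad H3K9me3. ZNF274, encoded in the cluster, is known to bind the 3' ends of zinc finger genes and to bring SETDB1 there.

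SETDB1 RNA was 37.5, 39.6 and 38.8 CPM (counts scaled to library size with TMM factors) in the control and 23.4, 21.2 and 21.1 CPM in the KO libraries. The KO libraries were all lower, with a log2 difference of -0.82 (SE 0.060, adjusted p 1.7e-12 by edgeR). Where the guide cuts is not given in the sources used here, so this transcript checks the labels only in part. Library totals ranged from 18065062 to 48364919 counts. Markers of A549 cells were high, with summed CPM of 14030 to 14476 in control and 13495 to 13768 in KO for 4 metabolic genes (ALDH1A1, AKR1B10, AKR1C1, NQO1). These sums hide opposite moves, all with an edgeR adjusted p under 0.05. ALDH1A1 was higher in KO (log2 difference 0.37), and AKR1B10 (-0.87), AKR1C1 (-1.54) and NQO1 (-0.14) were lower. For 5 epithelial genes (EPCAM, CDH1, KRT8, KRT18, KRT19) the sums were 2995 to 3272 CPM in control and 9210 to 9943 CPM in KO. Sums for other cell types were low, at 1.15 to 1.88 CPM over both genotypes for 4 alveolar type II genes, 3.16 to 4.19 CPM for 4 fibroblast genes with 2 of them at 0 counts, and 0.034 to 0.487 CPM for 4 leukocyte genes with 1 at 0 counts. The endothelial gene CDH5 was at 0.212 to 0.378 CPM in control and 3.798 to 5.113 CPM in KO libraries. The part of these shifts in the results below was not tested. In bulk RNA a change in the number of cells that express a gene and a change in RNA per cell cannot be told apart.

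The start-site regions of the cluster are shown first, because its genes moved together and because a pair with near-identical start regions did not. RefSeq windows on GRCh38.p14, from 250 bases before to 50 bases after each annotated start, were matched by symbol for 45 of the 50 genes. The letters CCGGAAGT, an ETS-type motif, were searched on both strands with the complement ACTTCCGG. They were present in 23 of the 45 genes (51.1%), against 4.95% of 27305 genes with a window and 4.14% of 35116 windows. Among 180 zinc finger genes elsewhere on chromosome 19 the share was 13.3%. The windows below end at the base before the start, run 5' to 3' along the gene, and carry the motif or its complement in capitals. Those of ZNF671, ZNF134, ZNF419, ZNF132 and ZNF776 were picked to show the motif close to the start, with its first base at position -15 to -19. The place of the first copy of the motif varied in other genes, from -150 in ZNF256 and -128 in ZNF547 to 1 in ZNF470 and 4 in ZNF551.
ZNF671, chr19:57727625-57727684, minus strand: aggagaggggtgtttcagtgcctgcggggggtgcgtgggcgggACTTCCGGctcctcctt
ZNF134, chr19:57614182-57614241, plus strand: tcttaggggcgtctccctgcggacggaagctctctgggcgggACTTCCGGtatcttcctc
ZNF419, chr19:57487690-57487749, plus strand: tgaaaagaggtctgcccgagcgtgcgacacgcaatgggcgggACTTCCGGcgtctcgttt
ZNF132, chr19:58440154-58440213, minus strand: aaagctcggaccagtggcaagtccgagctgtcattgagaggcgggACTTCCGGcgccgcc
ZNF776, chr19:57746755-57746814, plus strand: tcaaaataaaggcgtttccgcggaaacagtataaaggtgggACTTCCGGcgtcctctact

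The motif was not shared by every gene with a large RNA difference. ZNF606 and ZNF274 hold it farther upstream, but ZNF274 also holds a copy just after the start, beyond the end of the window shown here. These letters are not in the windows of ZNF329, ZNF582 or ZNF135, 3 of the 4 genes with the largest increases.
ZNF606, chr19:58002821-58002920, minus strand: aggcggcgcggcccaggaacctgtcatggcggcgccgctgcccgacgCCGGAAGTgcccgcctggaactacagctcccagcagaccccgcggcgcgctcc
ZNF274, chr19:58182961-58183060, plus strand: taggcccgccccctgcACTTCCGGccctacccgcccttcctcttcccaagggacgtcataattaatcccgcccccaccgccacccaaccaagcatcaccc
ZNF329, chr19:58150790-58150889, minus strand: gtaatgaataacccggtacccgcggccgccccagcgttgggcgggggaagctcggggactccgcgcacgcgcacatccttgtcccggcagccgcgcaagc
ZNF582, chr19:56393535-56393634, minus strand: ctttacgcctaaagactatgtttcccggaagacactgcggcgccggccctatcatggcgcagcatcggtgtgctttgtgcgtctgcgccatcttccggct
ZNF135, chr19:58059139-58059238, plus strand: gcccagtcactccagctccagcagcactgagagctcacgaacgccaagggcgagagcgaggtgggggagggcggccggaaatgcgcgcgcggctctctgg

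Of the 23 genes with the motif 21 were higher in KO, with a median log2 fold change of 1.29, and of the 20 tested genes without it 18 were higher, with a median of 1.58. The CCAAT box (CCAAT) was in 62.2% of the genes of the cluster, 39.72% of all genes and 51.7% of the other chromosome 19 zinc finger genes. In the same order the GC box (GGGCGG) was in 66.7%, 48.3% and 68.9%, the TATA box (TATAAA) in 2.2%, 13.99% and 3.9%, and the E box (CACGTG) in 11.1%, 8.77% and 3.3%. A ZNF143-type motif was in 31.1%, 1.48% and 18.3%. The motifs were searched on both strands and may overlap each other. Their list was chosen after the sequences were seen, and a match is a description, not a bound site. The median number of CpG in a window was 23 in the cluster, 19.5 in the other chromosome 19 zinc finger genes and 14 over all genes.

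ZNF587, ZNF587B and ZNF814 are shown over the whole 250 bases, because they are related neighbours with unequal RNA differences.
ZNF587, chr19:57849609-57849858, plus strand: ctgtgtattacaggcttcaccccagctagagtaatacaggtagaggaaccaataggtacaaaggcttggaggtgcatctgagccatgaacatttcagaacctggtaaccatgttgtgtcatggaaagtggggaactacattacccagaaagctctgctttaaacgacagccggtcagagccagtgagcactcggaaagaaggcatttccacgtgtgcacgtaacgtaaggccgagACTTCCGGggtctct
ZNF587B, chr19:57830049-57830298, plus strand: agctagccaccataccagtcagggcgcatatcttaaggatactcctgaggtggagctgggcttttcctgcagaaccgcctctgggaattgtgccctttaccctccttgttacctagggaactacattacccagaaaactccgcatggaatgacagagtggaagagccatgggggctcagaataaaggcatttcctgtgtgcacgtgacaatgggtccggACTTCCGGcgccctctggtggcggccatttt
ZNF814, chr19:57889038-57889287, minus strand: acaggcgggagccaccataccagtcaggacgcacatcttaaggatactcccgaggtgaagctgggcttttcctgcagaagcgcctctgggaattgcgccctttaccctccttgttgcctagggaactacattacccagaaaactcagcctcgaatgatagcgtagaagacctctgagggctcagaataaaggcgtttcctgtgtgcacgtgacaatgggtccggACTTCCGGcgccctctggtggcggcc
ZNF587B and ZNF814 share 226 of 245 aligned bases (92.2%, with 10 gap bases) before the start, and both hold the motif. ZNF587 is less alike, with 80.2% of 207 aligned bases shared with ZNF587B (86 gap bases) and 77.1% of 214 with ZNF814 (72 gap bases).

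Across the cluster RNA rose in SETDB1 KO cells, and no gene fell. Of the 50 genes, 48 had enough counts to be tested, and 43 were higher in KO at an adjusted p under 0.05 (edgeR quasi-likelihood, Benjamini-Hochberg over 17767 genes), where 32.8% of all tested genes were higher. None was lower, where 30.0% of all tested genes were, so that 62.8% of all tested genes differed in one direction or the other. None was lower at an unadjusted p under 0.05 either, and DESeq2 and limma voom also called 0 lower, with 41 and 43 higher. In 28 genes the increase was at least 2-fold, against 9.86% of all tested genes, and in 0 was there a decrease of at least 2-fold, against 4.85%. In 14 it was at least 4-fold, while 15 genes that rose did so by less than 2-fold. The median log2 fold change over the 48 genes was 1.37, against 0.004 over all tested genes, and it was the same with ZNF135, which had no control count, placed at its lower bound. In 43 genes every KO library was above every control library, against 34.1% of all tested genes, and in 0 every KO library was below, against 31.7%. The 50 genes took 0.0479 to 0.0497% of all counts in control and 0.119 to 0.125% in KO libraries. CPM is not divided by gene length, so levels are compared within a gene only.

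**Figure D1:**
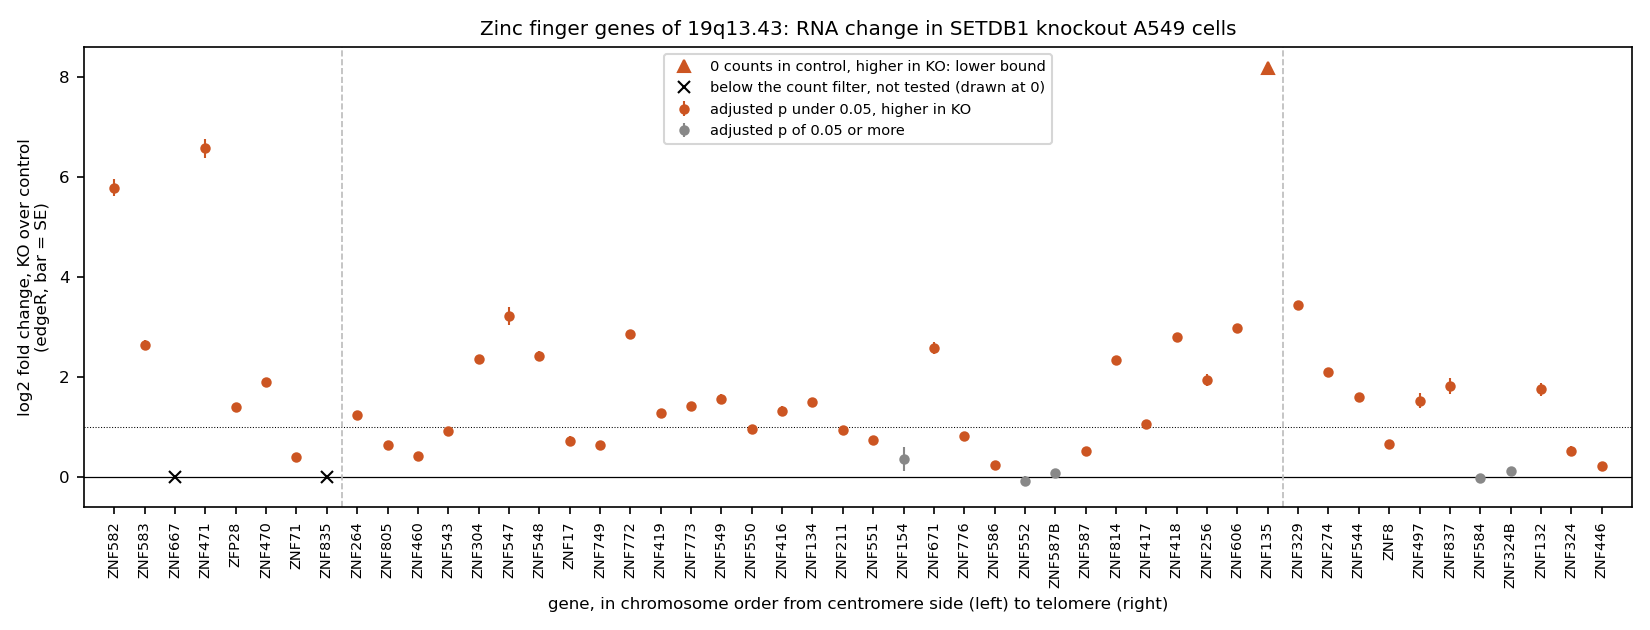
Log2 fold change (KO over control, edgeR; bars are SE) of each zinc finger gene in chromosome order; the dotted line marks a 2-fold increase, dashed lines separate 3 groups by place, and crosses mark 2 genes that were not tested. Of the 48 tested genes 43 were higher in KO, and ZNF135 is drawn at its lower bound.

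The genes with the largest increases went from at or near 0 to clear expression. ZNF135 (ENSG00000176293), a KRAB zinc finger gene reported as methylated in tumours, had 0 counts in each of the 3 control libraries and 300, 612 and 253 counts in the KO libraries. Against a floor of 3 counts over the control libraries together, it was at least 290-fold higher (edgeR adjusted p 5.9e-20). ZNF471 was at 0.0425, 0.221 and 0.172 CPM in control and 14.2, 13.7 and 13.8 CPM in KO libraries. ZNF582 was at 0.255, 0.166 and 0.309 CPM in control and 14.5, 14.1 and 14.3 CPM in KO libraries. For both genes every KO library was far above every control library, with log2 fold changes of 6.57 (SE 0.20) and 5.79 (SE 0.17) and edgeR adjusted p-values of 3.2e-21 and 1.4e-21. Their control levels rest on few counts, 3 to 9 per library for ZNF582, which limits the precision of the fold. Like ZNF135, both passed the count filter through their KO libraries, so they could hardly be called lower.

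Genes that control cells already expressed rose as well. ZNF329 was at 5.78, 6.68 and 6.60 CPM in control and 71.8, 67.5 and 67.3 CPM in KO libraries, a rise of 3.44 on the log2 scale (SE 0.069, adjusted p 3.8e-25 by edgeR). ZNF606, a KRAB zinc finger gene, was at 7.26, 6.13 and 7.08 CPM in control and 56.8, 54.5 and 52.9 CPM in KO libraries, a rise of 2.99 on the log2 scale (SE 0.071, adjusted p 1.3e-23 by edgeR). The genotypes were far apart for both. ZNF772 was at 5.02 to 5.81 CPM in control and 39.5 to 42.0 CPM in KO libraries, a log2 difference of 2.86 (edgeR adjusted p 1.6e-22). ZNF547, ZNF418 and ZNF583 rose by 3.23, 2.80 and 2.65 on the log2 scale (edgeR adjusted p 4.2e-15, 8.8e-21 and 4.1e-19). All 3 had the lowest KO library above the highest control library.

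Among 7 genes reported as promoter-methylated in tumours (ZNF582, ZNF471, ZNF154, ZNF671, ZNF132, ZNF667 and ZNF135), 6 were tested and 5 (83.3%) rose, against 89.6% of the tested genes of the cluster and 32.8% of all tested genes. Their median log2 fold change was 4.18. ZNF671 was at 1.70, 2.10 and 2.13 CPM in control and 11.9, 11.8 and 11.9 CPM in KO libraries, a rise of 2.58 on the log2 scale (SE 0.11, adjusted p 3e-17 by edgeR). ZNF132 went from 1.83, 1.88 and 1.92 CPM to 7.07, 6.07 and 6.19 CPM, a rise of 1.76 on the log2 scale (SE 0.13, adjusted p 3.2e-12 by edgeR). Neither gene had overlapping genotypes. ZNF154 was at 1.27, 1.33 and 1.68 CPM in control and 2.31, 2.11 and 0.980 CPM in KO libraries. The third KO library of ZNF154 lay below all control libraries and the other two above them, and the log2 fold change of 0.37 (SE 0.24) did not pass the test (edgeR adjusted p 0.19). Without KO replicate 3 it was 0.59 and passed. ZNF667 had 1 count in a single KO library and 0 in the other libraries, and ZNF835, a gene outside this list, had 0 counts in all 6. DNA methylation was not measured in these samples.

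**Figure D2:**
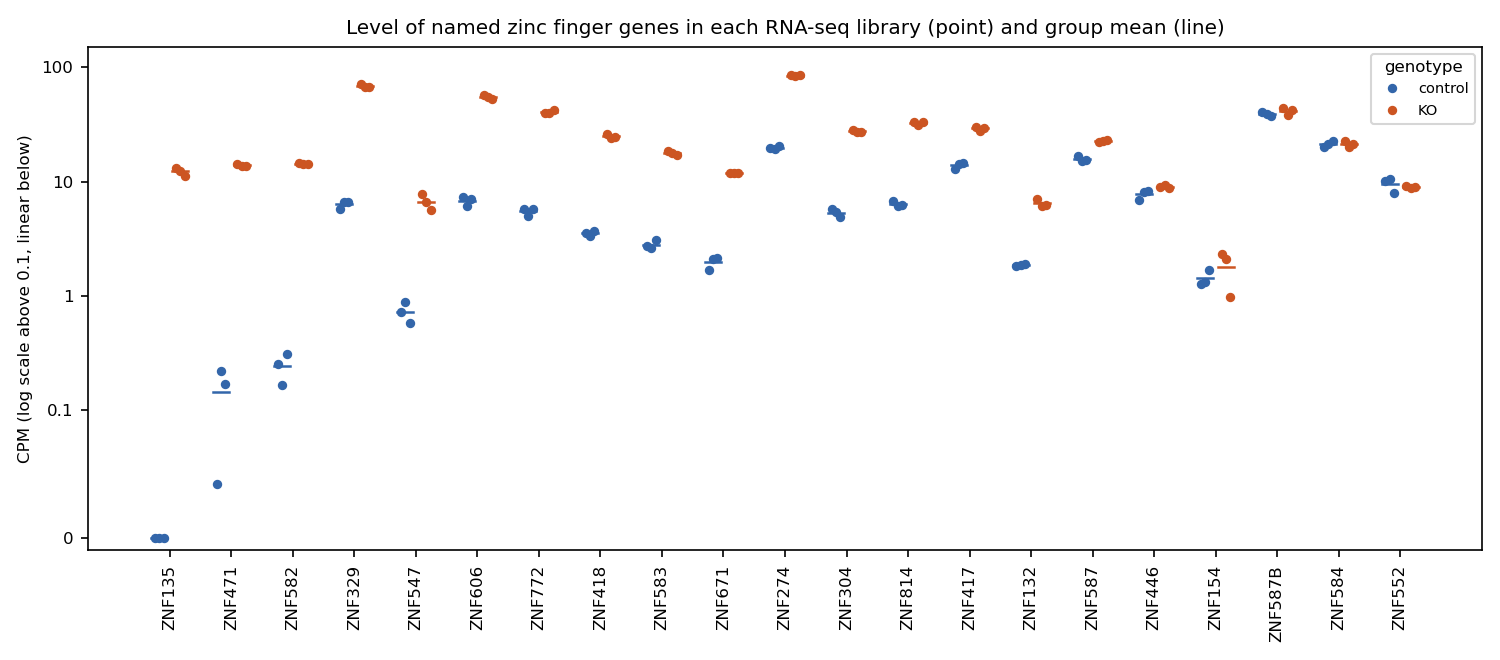
CPM of 21 zinc finger genes in each RNA-seq library (points; lines are the mean of 3 libraries), on a scale that is logarithmic above 0.1 CPM and linear below. ZNF135 has 0 counts in all control libraries, and ZNF154, ZNF587B, ZNF584 and ZNF552 have overlapping genotypes.

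ZNF274, which brings SETDB1 to zinc finger genes, itself rose. It was at 19.5, 19.1 and 20.4 CPM in control and 84.8, 83.6 and 85.1 CPM in KO libraries. All KO libraries were above all control libraries, with a rise of 2.10 on the log2 scale (SE 0.054, adjusted p 8e-23 by edgeR). ZNF304, another zinc finger gene of the cluster, was at 5.73, 5.41 and 4.91 CPM in control and 28.5, 26.97 and 26.96 CPM in KO libraries. Its genotypes did not overlap either, and its rise on the log2 scale was 2.36 (SE 0.081, adjusted p 6.6e-20 by edgeR). ZNF446, which has a SCAN domain, a domain for pairing with other zinc finger proteins, was at 6.97, 8.06 and 8.35 CPM in control and 8.91, 9.40 and 8.73 CPM in KO libraries. Its rise on the log2 scale was 0.22 (SE 0.093, adjusted p 0.044 by edgeR). That call was lost with DESeq2, with upper quartile scaling, with a filter of 1 CPM and in 4 of the 6 fits that leave out a library.

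ZNF587 and ZNF417, reported to bind endogenous retroviruses of the HERV-K group, and their neighbours ZNF587B and ZNF814 did not move alike. ZNF814 was at 6.71, 6.07 and 6.29 CPM in control and 33.1, 31.4 and 33.3 CPM in KO libraries, a rise of 2.35 on the log2 scale (SE 0.075, adjusted p 1.3e-20 by edgeR). ZNF587B, whose start region is 92.2% identical to that of ZNF814, was at 41.0, 38.97 and 37.8 CPM in control and 43.7, 38.49 and 42.6 CPM in KO libraries. The genotypes were well apart for ZNF814 and overlapped for ZNF587B, whose log2 fold change was 0.08 (SE 0.058, edgeR adjusted p 0.25). ZNF417 rose by 1.06 on the log2 scale (SE 0.068, edgeR adjusted p 9.8e-14). ZNF587 rose by 0.53 (SE 0.068, edgeR adjusted p 1.3e-07). These genes share long near-identical stretches, and how the authors' counting split such reads is not given in the sources used here, so their separate values are uncertain. The difference between ZNF814 and ZNF587B was not tested.

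In 5 tested genes no difference was detected. ZNF584 was at 20.2, 21.2 and 22.4 CPM in control and 22.5, 20.01 and 21.3 CPM in KO libraries, with a log2 difference of -0.01 (SE 0.068, adjusted p 0.89 by edgeR), whose sign turned under several alternatives. ZNF552 was at 10.2, 10.5 and 8.004 CPM in control and 9.08, 8.85 and 8.91 CPM in KO libraries, a log2 difference of -0.08 (SE 0.097, adjusted p 0.50 by edgeR). The genotypes of both genes overlapped. ZNF587B, ZNF154 and ZNF324B were the others. ZNF324B, chosen after its values were seen, had a log2 difference of 0.12 (SE 0.090, adjusted p 0.24 by edgeR). Its neighbour ZNF324, a near-copy, had 0.53 (SE 0.087, edgeR adjusted p 7.6e-06).

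Outside the genes picked by the naming rule, the cluster held 26 genes that rose, all with KO libraries above control libraries and 13 of them by at least 2-fold. Their log2 fold changes ran from 0.24 for ZNF586 to 2.42 for ZNF548, with a median of 1.11. The ends of this range and the next genes were chosen after their values were seen. ZNF548 was at 4.33, 3.42 and 4.36 CPM in control and 22.9, 21.8 and 21.6 CPM in KO libraries. ZNF544, the next zinc finger gene after ZNF274 on the telomere side, was at 22.0, 21.9 and 22.5 CPM in control and 69.2, 64.9 and 67.4 CPM in KO libraries. In both genes the genotypes were far apart and the libraries of a genotype close together. ZFP28 and ZNF470, on the centromere side, rose by 1.41 (SE 0.073) and 1.90 (SE 0.079) on the log2 scale. ZNF586, which carries the ETS-type letters, was at 10.7, 10.7 and 10.8 CPM in control and 13.5, 12.1 and 12.7 CPM in KO libraries, close together but not overlapping (adjusted p 0.0098 by edgeR, 0.051 by DESeq2).

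By place, RNA was higher in KO from one end of the cluster to the other. In the first group, from ZNF582 to ZNF835, all 6 tested genes of 8 rose, with a median log2 fold change of 2.28. From ZNF264 to ZNF135, 28 of 31 rose, with a median of 1.25. From ZNF329 to ZNF446, 9 of 11 rose, with a median of 1.53. The tested genes of the stretch, members or not, were then taken in RefSeq order. Untested genes that lie between them, such as ZSCAN1 and ZNF667, were passed over. In this order 5 runs of at least 3 genes held only genes that rose at least 2-fold. The longest had 13 genes, 9 of them zinc finger genes of the cluster, and ran from ZNF814 through ZNF606, ZNF135, ZNF329 and ZNF274 to ZNF544. The next had 9 genes and ran from ZNF582 to ZNF470. Both runs hold genes with few or no control counts, such as ZNF135, C19orf18, ZNF582 and ZNF471. Such genes passed the count filter through their KO libraries and could hardly be called lower. How often such runs occur elsewhere was not counted.

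Other genes lie between and beside the zinc finger genes. Of 61 such genes matched among the counted IDs, 29 were tested. Of these 22 were higher and 1 lower in KO, with 12 at least 2-fold higher and a median log2 fold change of 0.73. Of all tested genes 32.8% were higher, 30.0% lower and 9.86% at least 2-fold higher. Several of the 12, among them ZSCAN18, C19orf18 and VN2R19P, had few or no control counts and passed the count filter through their KO libraries. Such genes could hardly be called lower, so these counts lean toward increases. ZSCAN18, a SCAN-domain zinc finger gene between ZNF135 and ZNF329, went from a mean of 0.362 to 34.3 CPM, a rise of 6.64 on the log2 scale (SE 0.14, adjusted p 6.5e-25 by edgeR). C19orf18 had a rise of 6.11 on the log2 scale (SE 0.38, adjusted p 4.3e-14 by edgeR). VN2R19P, a vomeronasal receptor pseudogene, had 0 control counts and 447 KO counts in all, at least 111-fold higher against the floor of 3 counts. The gene that fell was UBE2M, a NEDD8-conjugating enzyme gene close to the telomere, with a log2 difference of -0.19 (SE 0.046, adjusted p 0.00094 by edgeR). TRIM28, the KRAB corepressor, lies in the same stretch. It was at 553, 622 and 622 CPM in control and 545, 596 and 585 CPM in KO libraries, overlapping, with a log2 difference of -0.06 (SE 0.047, adjusted p 0.30 by edgeR). Without control replicate 1 it was -0.11 and passed the test.

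Of 12 genes of the KRAB silencing machinery, SETDB1 included, 6 rose and 4 (33.3%) fell. Of all tested genes 32.8% were higher and 30.0% lower, so the share that fell was close to that of all genes. The 4 include SETDB1 itself, the gene disrupted in the KO cells, so its fall says nothing about the partners. ATF7IP, which protects SETDB1 from degradation, was at 68.1, 61.7 and 66.0 CPM in control and 316, 298 and 291 CPM in KO libraries. The KO libraries were all far higher, with a rise of 2.21 on the log2 scale (SE 0.048, adjusted p 2e-24 by edgeR). ATF7IP2 rose by 0.61 and the HP1 gene CBX5 by 0.45. The HUSH complex genes TASOR and PPHLN1 and their partner MORC2 rose by 0.27, 0.29 and 0.25. CBX3 (-0.46), SMARCAD1 (-0.39) and CBX1 (-0.14) were lower, and MPHOSPH8 (0.10) was not called. All these are log2 fold changes of the edgeR fit.

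Chromosome 19 as a whole and its other zinc finger genes also moved upward. Of 1060 tested chromosome 19 genes outside the stretch 57% were higher and 11.9% lower in KO, with a median log2 fold change of 0.31. Of 217 zinc finger genes among them 92.2% were higher, with a median of 2.18, and of 301 zinc finger genes on other chromosomes 48.5% were higher, with a median of 0.18. In the cluster 89.6% of tested genes were higher, with a median of 1.37, so a high share with increases was not particular to it among chromosome 19 zinc finger genes. The difference between these lists was not tested, and neither was the part that the shift of chromosome 19 as a whole plays in the cluster's values.

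**Figure D3:**
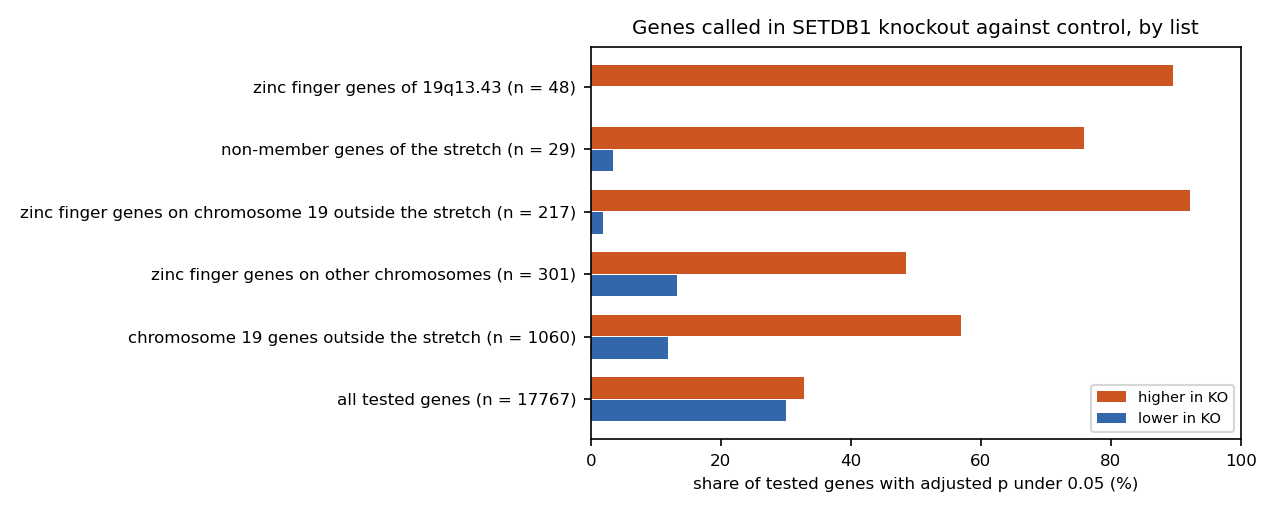
Share (%) of tested genes with an adjusted p under 0.05 (edgeR) that were higher or lower in KO, for the cluster and for other lists of genes. In the cluster 89.6% of 48 genes were higher and 0 lower, against 32.8% and 30.0% of all tested genes.

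Hi-C placed the segment largely in the B compartment of control cells, and its score rose in KO cells. The compartment score is signed, positive for A (usually active) and negative for B (usually inactive) as read from the sign, and was given by the authors per 100 kb bin and replicate. Over 23 bins the mean score was -0.799 and -0.877 in the control replicates and -0.0714 and -0.0620 in the KO replicates. Both KO replicates were higher, by 0.771 on average. With 2 replicates against 2 an exact permutation test cannot give less than p = 0.33 (two-sided). Bin by bin, limma over all 26496 bins called 22 of the 23 higher in KO, where 21.6% of all bins were higher. None was lower, where 37.3% of all bins were, and all 23 differences were above 0. The sign went from B to A in 9 bins, against 5.85% of all bins, and from A to B in 0, against 5.94%. Only bins in B in control can turn to A, and those were 20 of the 23 bins here. On chromosome 19 outside the segment 53 of 149 such bins turned to A, so the switch was not particular to the segment. Only 3 bins of the segment were in A in control, so few could turn to B.

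The switch covered a continuous block, chr19:57900001-58800000 (GRCh37), in which the mean score went from -0.841 to 0.219. The largest difference lay at chr19:58500001-58600000, with scores of -1.32 and -1.28 in control and 0.486 and 0.505 in KO replicates, a rise of 1.79 (SE 0.042, limma adjusted p 3.3e-09). The replicates of a genotype were close together and the genotypes far apart. The 3 next largest rises, of 1.52, 1.25 and 1.19, lay beside it. At the start of the block the KO scores were close to 0, at 0.0057 and -0.0015 in its first bin, and at chr19:58300001-58400000 they were -0.0209 and 0.0904, so the sign in these 2 bins depends on the replicate. The 11 bins before the block, chr19:56800001-57900000, rose from a mean of -1.19 to -0.549 and kept a negative mean. In the last of them the KO replicates were at 0.0134 and -0.119. The 3 bins after the block had positive means in both genotypes, though the first of them had control replicates at 0.227 and -0.0704. The last, with 0.784 and 0.820, did not pass the test (limma adjusted p 0.63). Outside the segment, chromosome 19 bins rose by 0.180 on average over 396 bins, and those in B in control cells by 0.447 over 149 bins. The mean difference over all bins of the genome was -0.038.

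**Figure D4:**
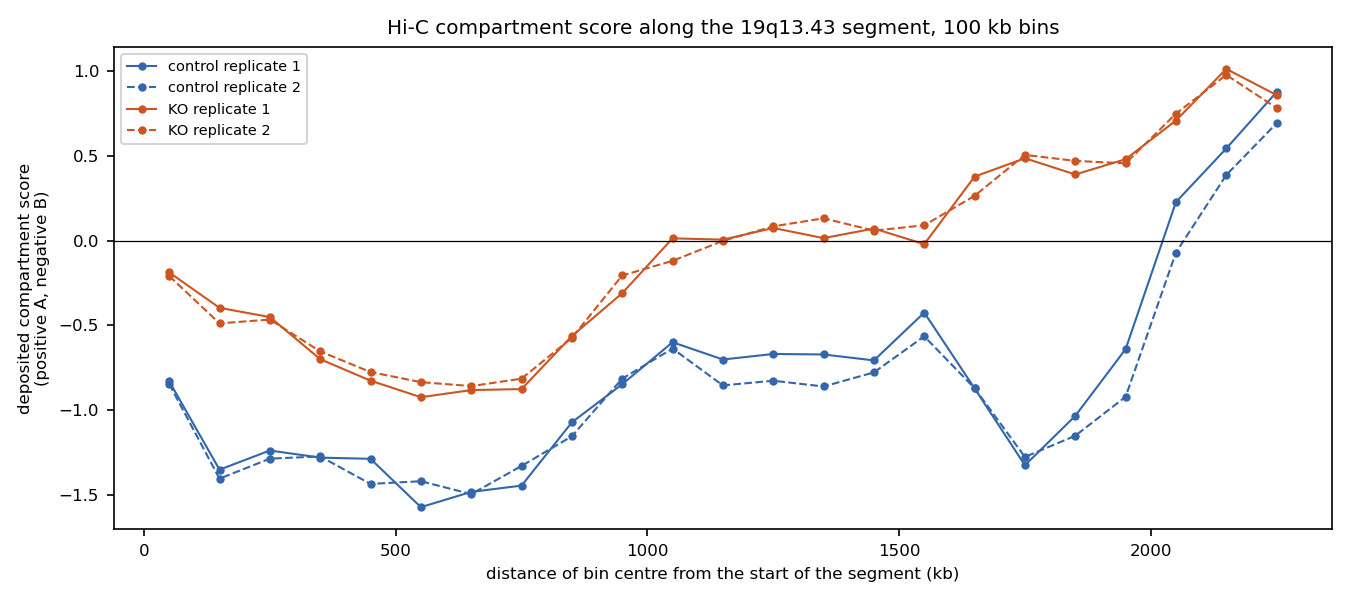
Compartment score of each 100 kb bin (points joined by lines, one line per Hi-C replicate) against distance from the start of the segment in kb. The KO replicates lie above the control replicates in 22 of 23 bins by limma's test and cross 0 in the block where the sign changes.

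The peak lists give 1 set of positions per mark and genotype, so their values have no replicate error. In control cells H3K9me3 peaks covered nearly the whole segment, and in KO cells most of that cover was gone. The 36 control peaks covered 2050 kb (88.0% of the segment), with a median width of 38255 bp and a widest peak of 237 kb at chr19:58421428-58658053. The 53 KO peaks covered 253 kb (10.8%), with a median width of 3227 bp and a widest peak of 19.98 kb. The KO peaks all overlapped a control peak by at least 1 bp, and 25 of the 36 control peaks had no KO peak. With control peaks over 88.0% of the segment, such an overlap was likely wherever a KO peak lay, so it says little about kept sites. On chromosome 19 outside the segment the cover went from 29.8% to 8.09%. Over the whole lists it went the other way, from 344060 kb in 102976 peaks to 623470 kb in 53949 peaks.

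Such dense H3K9me3 was rare in the genome. Of all bins 118 (0.445%) had at least 90% of their length in control peaks, 76 of them on chromosome 19 and 19 in the segment. In KO cells 12 of these 19 bins were under 5% covered, as were 82 of the 118 (both limits chosen after the data were seen). In the block that changed from B to A the cover went from 96.9% to 0.150%. In the bins that stayed B it went from 97.9% to 22.8%, but unevenly. The KO cover was 0.89% and 3.64% in the bins that start at 56800001 and 57100001. It was 0% in those that start at 57700001 and 57800001, and as high as 63.5% at chr19:57300001-57400000. Near-complete loss was therefore not limited to the block that changed.

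H3K27me3, the Polycomb mark, appeared over much of the part of the segment that stayed B. In the whole segment 31 control peaks covered 82.8 kb (3.56%) and 66 KO peaks covered 672 kb (28.8%), while outside the segment the cover of chromosome 19 went from 9.96% to 12.7%. In the bins that stayed B the mean cover went from 3.11% to 55.0%, higher in the bins of chr19:56900001-57700000 and lower in the other 3 (10.8% to 4.48%, 3.19% to 2.05% and 13.6% to 11.1%). In the block that became A it went from 4.28% to 6.37%. It was highest in 5 neighbouring bins at chr19:57200001-57700000, at 93.4%, 90.7%, 98.4%, 96.0% and 81.8% in KO cells against 0 to 3.58% in control cells. The same 5 bins kept 20.9 to 63.5% of H3K9me3 cover in KO cells. The widest KO peak, of 87.3 kb at chr19:57385500-57472814, had no control counterpart. Of the 66 KO peaks 48 were found in KO cells only, 13 of them (27.1%) on lost H3K9me3, that is, overlapping a control H3K9me3 peak without KO counterpart. Of the 18 KO peaks shared with control 13 (72.2%) did so. A wide control peak with any KO overlap does not count as lost, even where most of its cover was gone. The share on lost H3K9me3 therefore leaves out H3K27me3 peaks where H3K9me3 cover fell only in part. With no share of the segment's length beside them, these percentages do not show enrichment or depletion.

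**Figure D5:**
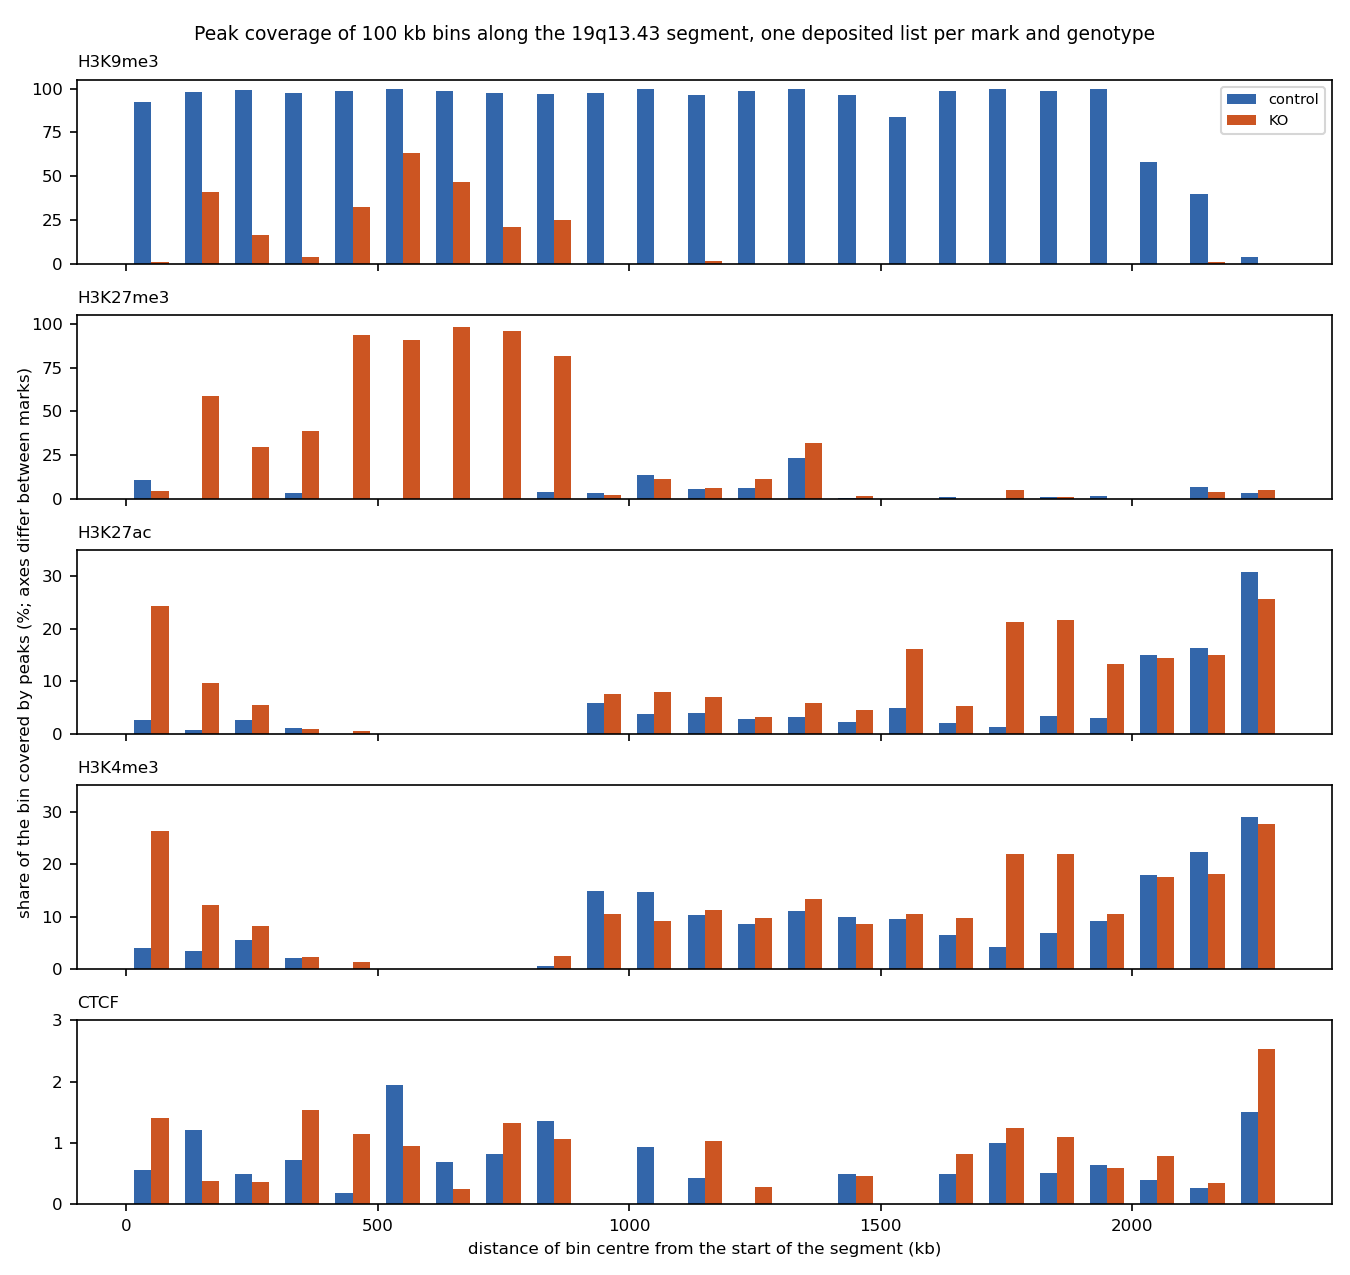
Share (%) of each 100 kb bin covered by peaks of 5 targets in control and KO cells, against distance from the start of the segment in kb, with a different vertical scale for each target. H3K9me3 covers nearly all bins in control, and H3K27me3 covers over 80% of 5 neighbouring bins in KO.

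H3K27ac, found at active promoters and enhancers, had more and wider peaks in KO cells. The segment held 66 control peaks over 106 kb (4.56%) and 106 KO peaks over 210 kb (9.01%), where chromosome 19 outside went from 7.64% to 9.11%. In the block that became A there were 27 control and 61 KO peaks, and cover went from 3.01% to 10.9%. In bins A in both genotypes it went from 20.7% to 18.4%. Of 44 peaks found in KO cells only, 36 (81.8%, Wilson 95% interval 68.0 to 90.5) lay on lost H3K9me3, against 53.2% (41.0 to 65.1) of the KO peaks shared with control. These intervals cover counting error only. The share of the segment's length on lost H3K9me3 was not calculated, so neither share can be read as an enrichment or a depletion. The widest KO peak, of 18.6 kb at chr19:56878466-56897028, lay at the centromere side of the segment and had no control counterpart. In bins 58500001 to 58700000, where the compartment score rose most, H3K27ac cover went from 1.24% to 21.3% and from 3.37% to 21.7%. A similar rise, from 2.65% to 24.3%, lay in the bin at chr19:56800001-56900000. That bin holds the widest KO peak and stayed B, with a mean score of -0.837 in control and -0.198 in KO.

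H3K4me3 marks promoters. The segment held 83 control peaks over 190 kb (8.17%) and 98 KO peaks over 253 kb (10.9%), where chromosome 19 outside went from 7.07% to 9.04%. In the segment 30 KO peaks had no control counterpart. The share of KO peaks with one was 69.4%, close to 69.1% on the rest of chromosome 19. In the same 2 bins, where the compartment score rose most, H3K4me3 covered 4.13% and 6.85% in control and 22.0% in each in KO cells. A larger rise, from 3.945% to 26.2%, lay in the bin at chr19:56800001-56900000, which stayed B. The H3K4me3 gain was therefore not limited to bins that changed to A. Genes could not be placed on these bins, because no annotation of GRCh37 was used here.

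CTCF peaks, at sites that often bound chromatin loops, were similar in number in both genotypes, but few lay at the same place. The segment held 53 control and 50 KO peaks, and 10 of each overlapped. That is 18.9% of the control peaks (Wilson 95% interval 10.6 to 31.4), against 65.9% on the rest of chromosome 19, and 20% of the KO peaks (11.2 to 33.0), against 48.1%. The peak lists carry no height, so whether the unshared peaks are weak was not tested. In the authors' list of topologically associating domains, the 1040 kb control domain at chr19:57640001-58680000 is listed in KO cells as 2 domains, of 880 kb and 160 kb, that meet at 58520000. The neighbouring domains at chr19:57160001-57640000 and chr19:58680001-59100000 have the same edges in both genotypes.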

How the data were processed

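The gene table holds whole-number counts per gene as deposited by the authors, and per the labels' protocols the libraries are stranded and from total RNA. The counter, its strand setting and its use of shared reads are not given in the sources used here. The submitters' processing notes name STAR 2.6.1c, edgeR 3.30.0, Bowtie2 2.2.3, SAMtools 1.5, Picard, MACS2 and hg19. The deposited peak and domain lists hold positions only. Their thresholds and any pooling of libraries are not given in the sources used here. The deposited compartment table holds a signed score per 100 kb bin and replicate, with no stated method. Per the labels, chromatin was cut with MNase (histone marks), sonication (CTCF) or DpnII (Hi-C). The labels of the KO H3K4me3 libraries lack a digit in the mark's name.

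KO and control counts were compared with edgeR 4.0.16 (R 4.3.3) by its quasi-likelihood F-test over all genes, with TMM scaling, the filterByExpr filter, robust dispersions, no term besides genotype, and Benjamini-Hochberg adjustment at 0.05. Compartment scores were tested with limma 3.58.1 over all bins. Peaks were compared in Python 3.11.15 with pandas 2.3.3 by an overlap of at least 1 bp. Of 62486 gene IDs 93.8% matched a symbol. Gene order, chromosome and start-site windows came from RefSeq tables on GRCh38.p14, and identities were taken from global alignments in Biopython 1.88. On simulated data with known changes the RNA-seq fit recovered 94.9% of 200 changed genes among 17767, with 6.06% of calls false. The simulated spread was set in advance, not estimated from these libraries, and as many genes rose as fell. In the real data 62.8% of tested genes were called, so these rates need not hold there. The labels do not say that replicates are separate cultures, so p-values measure only the spread between these samples, which may be technical. No libraries agreed within sampling noise (chi-square per degree of freedom 1.64 to 6.71).

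The genes, the lists and the rules were chosen with earlier results of these data known. Named were the 10 largest increases and decreases among called genes with a mean CPM of at least 0.5 in the higher group and no overlap (0 decreases qualified), a list of genes with known roles, the 3 smallest changes, genes that failed the filter, the 3 largest changes each way among other genes of the stretch, and partner genes past the threshold. Alternatives were other scalings, tools, filters, a fit with a replicate block, removal of each replicate in turn, and other peak and segment limits. Input libraries were not used here, and 0 per-sample columns went unmapped. Protein features of the genes were not analysed here.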

Additional observations from a re-analysis of the deposited data

How the results depend on the processing

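Of 670 alternative values 631 were labelled the same as the main value. For the log2 fold change of a gene, that label meant the same direction and the same side of the threshold. Values given with a spread could also move by less than that spread. Counts and covered lengths have no spread of their own, and the label allowed them some change. Other genes of the stretch called higher were 26 with no filter on low counts and 19 with the filter of 1 CPM, against 22. Both counts were labelled the same. Leaving out each replicate gave 42 to 43 cluster genes higher in KO, 0 lower, 28 to 29 at least 2-fold higher, 0 at least 2-fold lower, a median log2 fold change of 1.31 to 1.40, 20 to 24 other genes of the stretch higher and 1 to 2 lower (2 without control replicate 1, when TRIM28 was also called), 22 bins higher, 0 lower, and a rise of the segment's mean score of 0.733 to 0.810. With no filter on low counts the median was 1.45, with 1 more gene tested. Libraries of the same number were not taken as pairs, since their deviations from the genotype means correlated at 0.169, 0.103 and 0.0616. With the replicate block 43 genes were higher, 0 lower, 28 at least 2-fold higher, the median was 1.37, and 22 bins were higher. The log2 fold change of ZNF584 was above 0 with library size only (0.018), DESeq2 (0.011), no filter (0.027), and from -0.052 to 0.042 in the fits that leave out a replicate (above 0 without control replicate 3 or KO replicate 2). Of the other named genes ZNF446 lost its call in 7 alternatives and CBX1 in 4, while ZNF154 and TRIM28 each gained one in 1. Under the other scalings, tools and filters the median log2 fold change of all genes lay between -0.031 and 0.034, against 0.004. Dividing the compartment columns by their SD gave a rise of 1.11, in SD units, and shortening the segment by 200 kb at each end gave 0.821. With the wider 50% of each list the log2 ratio of KO to control was -1.13 for H3K9me3 peak number, -3.68 for its covered length and 1.21 for H3K27ac peak number, so that the H3K9me3 peak number, higher in KO in the full lists, was lower. Shared shares with the wider 50% were 17.1% of control H3K9me3 peaks, 39.7% of KO H3K27ac peaks, and 89.9% of control and 81.3% of KO H3K4me3 peaks. With a reciprocal overlap of at least 50% they were 0% of control and 0% of KO H3K9me3 peaks, 38.7% of control H3K27me3 peaks, 63.6% and 39.6% of H3K27ac, and 69.9% and 59.2% of H3K4me3 peaks. In the shortened segment 9.52% of control and 10.5% of KO CTCF peaks were shared. Apart from the unit of the divided scores and the smaller sets tested, the cause of these moves was not tested. The depth of ChIP-seq and Hi-C libraries is unknown from these files, and 2 replicates limit any test of the segment as a whole. Number and identity of protein fingers were not run.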

Other observations

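Divergent transcripts, which start beside a gene and run the other way, were counted for 6 genes of the cluster and were looked at after their values were seen. ZNF582-DT had a log2 fold change of 5.62 (SE 0.25) beside 5.79 for ZNF582, and ZNF470-DT 1.82 (SE 0.25) beside 1.90 for ZNF470. ZFP28-DT had 3.37 (SE 0.52) beside 1.41 for ZFP28. ZNF8-DT had 0.83 (SE 0.12) beside 0.66 for ZNF8, and ZNF132-DT 0.73 (SE 0.23) beside 1.76 for ZNF132. These 5 were called higher in KO by edgeR. ZNF584-DT, with 0.03 (SE 0.092), was not called, and neither was ZNF584. The strand setting of the counting is not given in the sources used here, so reads of a gene and of its divergent partner may not be separated where they overlap.

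The endogenous retrovirus gene ERVK3-1, which lies beside ZNF8, had a log2 difference of -0.05 (SE 0.10, adjusted p 0.67 by edgeR), and the read-through transcript ZNF8-ERVK3-1 had 0.02 (SE 0.15, edgeR adjusted p 0.91), while ZNF8 rose by 0.66 (SE 0.063, edgeR adjusted p 4.6e-10). These genes were chosen after their values were seen.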
